A study of Mus musculus with 12 samples.

Results

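The 10 genes H2-K1, H2-D1, H2-T23, B2m, Tap1, Tap2, Tapbp, Tapbpl, Nlrc5 and Erap1 encode the chains of major histocompatibility complex (MHC) class I molecules, the factors that load peptides onto them and a regulator of their transcription. They were taken from a given list, by Ensembl identifier among the 22274 genes of a tumor table and by symbol among the 19496 genes of a macrophage table, and all 10 were found in both. RNA-seq had been run on 12 mouse libraries in 4 groups of 3. By their labels, the shCtrl and shChrebp groups were subcutaneous tumors of MC38, a colon carcinoma line, grown in C57BL/6 mice. They grew from cells that carried a control hairpin or a hairpin against Chrebp, a glucose-responsive transcription factor with the gene symbol Mlxipl. The labels name the genotypes WT and Chrebp knockdown, and they do not say whether the hairpin line was 1 clone. The PBS and choline groups were bone-marrow-derived macrophages, cells grown from marrow in culture. All macrophages, the PBS controls included, had first received LPS and IFN-γ for 4 h, and were then kept for 24 h with 200 µM choline or with PBS. The labels give no age or sex, and nothing in them states that the 3 libraries of a group came from different animals or cultures, so the p-values cover only the scatter of these libraries, which may be technical.

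A class I molecule is a heavy chain (H2-K1, H2-D1 or the non-classical H2-T23) held by β2-microglobulin (B2m). It carries a short peptide from the cell's own proteins to the surface, where CD8 T cells read it, and NK cells sense its presence. The Tap1 and Tap2 transporter moves peptides into the endoplasmic reticulum, Erap1 trims them there, tapasin (Tapbp) holds empty class I molecules at the transporter, and its relative Tapbpl edits the bound peptide away from the transporter. Nlrc5 is a transactivator that acts at class I promoters through proteins bound to their X and Y boxes, and interferon-γ raises most of these genes, in part through IRF1.

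The tumor libraries held 15844794 to 24181897 counts and the macrophage libraries 34957615 to 35390666 reads, the latter recovered from the deposited FPKM values. By identifier the hairpin's target Mlxipl was counted 3, 1 and 1 times in the shCtrl libraries and 1, 1 and 2 times in those labelled shChrebp, too few to show a knockdown or its absence, and the groups are named here by their labels. The row that carries Mlxipl in the deposited symbol column has the identifier of S1pr3, a sphingosine 1-phosphate receptor gene. That row was at 23.7, 25.9 and 26.1 CPM in the shCtrl and 10.7, 12.1 and 10.1 CPM in the shChrebp libraries, lower as the label would have it for Mlxipl. Its counts and FPKM imply a length of 4463 bases in every library, that of the 1 annotated S1pr3 transcript, while the longest Mlxipl transcript has 3622. Leukocyte marker RNA was scarce in the libraries labelled tumor tissue. The summed level of 3 pan-leukocyte markers was 0.963 to 1.96 CPM, a count scaled to the library total, in shCtrl and 1.07 to 1.87 in shChrebp. Cd3d, Cd3e, Cd8a, Cd8b1, Ncr1 and Gzma were at 0 in all 6 libraries. The 4 endothelial markers averaged under 1 CPM each, and Cldn5 was at 0. The groups are called tumors by their labels, and how much host tissue these libraries held was not tested. The library shCtrl 1 stood apart by a summed level of 5 epithelial markers of 58.6 CPM, against 8.81 to 13.8 in the other 5 tumor libraries. In the macrophages the 6 macrophage markers summed to 3600 to 3760 FPKM with PBS and 4670 to 5090 with choline, and the epithelial, fibroblast and endothelial markers in the table each summed to below 0.2 FPKM. The higher sum came mostly from Lyz2 (2590 to 3790 FPKM): of 5 markers tested Lyz2 and Adgre1 rose, Cd14 fell (499 to 462) and Csf1r and Cd68 did not pass, with a median log2 fold change of 0.00.

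Promoter sequences were searched for the X and Y box letters and other elements known from class I genes. RefSeq windows (GRCm38.p6, 250 bases before to 50 bases after each gene's start) were matched for 7 of the 10 genes, 8 windows in all, since H2-K1 had a pair of starts. The windows of H2-K1, H2-D1 and B2m hold TGACG, the core of the X2 box, with ATTGG, the Y box on the reverse strand, 25 bases further on, counted from first base to first base. These stretches of 50 bases, with both cores in capitals, are shown since the 3 genes encode the partners of 1 molecule.
H2-K1: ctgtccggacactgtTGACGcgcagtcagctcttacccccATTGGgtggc
H2-D1: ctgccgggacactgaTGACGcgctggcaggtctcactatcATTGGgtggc
B2m: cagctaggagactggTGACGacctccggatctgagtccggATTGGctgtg
This arrangement was found in 19 of 32851 mouse promoter windows (0.0578%), in 16 genes that include the class I gene H2-M3, while TGACG and CCAAT at any distance on either strand were found together in 7.73%. The spacing was read from these sequences and not fixed beforehand, so the count is a description.

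Full windows are given for the 3 genes above and for H2-T23 and Tap1, the members with the largest differences between tumor groups. Each runs 5′ to 3′ on the gene's strand, and capitals mark every match on either strand to the core of an interferon-stimulated response element (ISRE, GAAA and again GAAA after 2 free bases), TTCNNNGAA (an interferon-γ activated site, GAS), a kappaB core that is GGG, then 5 free bases, then CC, the X2 core TGACG, the Y box letters CCAAT and the X1 box start, which reads CTAGC. Matches that overlap run together.
H2-K1, chr17:34000298-34000597, minus strand: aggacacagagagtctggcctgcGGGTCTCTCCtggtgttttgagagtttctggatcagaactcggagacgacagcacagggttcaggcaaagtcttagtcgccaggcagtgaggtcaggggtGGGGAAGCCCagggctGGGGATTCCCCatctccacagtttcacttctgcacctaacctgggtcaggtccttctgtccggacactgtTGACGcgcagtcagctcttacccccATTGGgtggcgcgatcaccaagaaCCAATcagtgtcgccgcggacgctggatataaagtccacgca
H2-D1, chr17:35262844-35263143, plus strand: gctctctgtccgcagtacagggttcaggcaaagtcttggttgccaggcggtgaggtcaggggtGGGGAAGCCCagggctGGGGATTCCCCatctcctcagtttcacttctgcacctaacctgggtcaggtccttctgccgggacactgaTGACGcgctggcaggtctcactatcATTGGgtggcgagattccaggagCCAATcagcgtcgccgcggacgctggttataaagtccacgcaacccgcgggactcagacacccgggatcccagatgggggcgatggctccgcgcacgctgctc
B2m, chr2:122147437-122147736, plus strand: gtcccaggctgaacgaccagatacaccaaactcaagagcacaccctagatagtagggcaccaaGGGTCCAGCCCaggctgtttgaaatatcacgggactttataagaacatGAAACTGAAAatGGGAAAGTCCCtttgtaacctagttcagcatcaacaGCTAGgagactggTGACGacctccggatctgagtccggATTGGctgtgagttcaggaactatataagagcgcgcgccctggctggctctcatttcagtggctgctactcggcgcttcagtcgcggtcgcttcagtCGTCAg
H2-T23, chr17:36032652-36032951, minus strand: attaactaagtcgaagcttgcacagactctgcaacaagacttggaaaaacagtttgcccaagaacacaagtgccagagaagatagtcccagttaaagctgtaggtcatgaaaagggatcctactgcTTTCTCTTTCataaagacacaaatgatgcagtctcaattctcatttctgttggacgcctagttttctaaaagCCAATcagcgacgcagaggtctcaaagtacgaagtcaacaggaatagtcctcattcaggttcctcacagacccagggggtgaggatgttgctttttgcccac
Tap1, chr17:34187306-34187605, plus strand: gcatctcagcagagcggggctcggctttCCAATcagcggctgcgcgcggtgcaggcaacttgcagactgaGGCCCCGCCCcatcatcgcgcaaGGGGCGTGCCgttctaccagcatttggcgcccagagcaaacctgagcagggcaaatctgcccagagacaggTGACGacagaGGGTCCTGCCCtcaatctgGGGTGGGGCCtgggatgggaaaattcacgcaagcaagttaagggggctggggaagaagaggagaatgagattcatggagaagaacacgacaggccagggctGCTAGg
ISRE letters were in 3 of the 8 member windows, 139 bases before the start of B2m, 124 before that of H2-T23 and 4 before that of Erap1, and in 3.44% of all 32851 windows. The X2–Y arrangement was in 3 of the 7 matched genes; the windows of H2-T23, Tapbp and Erap1 hold no TGACG, and that of Erap1 no CCAAT. GAS letters were in 0 of 8 and in 8.3% of all windows, kappaB letters in 5 of 8 and 50.8%, TGACG in 5 of 8 and 20.8%, CCAAT in 7 of 8 and 37.4%, and CTAGC in 3 of 8 and 32%. A match is a description of these letters and not a bound site. Only these exact letters were searched, so a window without a match may hold a looser form of an element.

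Levels set the members on very different footings. Per gene length, in FPKM, the order in shCtrl tumors was B2m at 1429 ± 40.0 (SD, n = 3), H2-D1 at 468.4 ± 3.37, H2-K1 at 393.7 ± 9.29, Tapbp at 110.0 ± 0.636, Tap1 at 27.68 ± 0.372, Nlrc5 at 19.59 ± 1.37, Tap2 at 17.54 ± 1.37, Erap1 at 12.68 ± 1.58, Tapbpl at 7.034 ± 0.0904 and H2-T23 at 6.787 ± 1.08. Neighbours in that order did not overlap between libraries, except Nlrc5 with Tap2 and Tapbpl with H2-T23. In PBS macrophages the order was B2m at 424.4 ± 2.21 FPKM, H2-D1 at 126.0 ± 7.91, Tapbp at 35.87 ± 1.16, H2-K1 at 22.64 ± 0.383, H2-T23 at 15.64 ± 1.10, Tap2 at 12.03 ± 0.971, Erap1 at 8.208 ± 0.202, Tap1 at 5.175 ± 0.406, Tapbpl at 3.083 ± 0.0467 and Nlrc5 at 1.244 ± 0.136, and no neighbours overlapped. B2m and H2-D1 led in both, while Nlrc5 was sixth in the tumors and last in the macrophages. The tables were normalized separately, so levels were not tested between them.

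In the tumors, nearly all class I genes were lower in the libraries labelled shChrebp. By edgeR's quasi-likelihood test (adjusted p under 0.05 over 11780 genes), 9 of the 10 members fell, 0 rose and Tapbpl did not pass, where 19.7% of all genes tested fell and 38.2% were called in either direction. The median log2 fold change of the 10 was −0.49, against −0.003 over all genes. The groups did not overlap in CPM, lower in shChrebp, for the same 9 members, where 23.5% of all genes tested were so placed. All 10 members passed the filter on low counts. The drop ran from −0.15 for B2m and Erap1 to −1.45 for H2-T23, and the 95% intervals of B2m (−0.21 to −0.09) and Tap1 (−1.07 to −0.88), for example, lay far apart. Without shCtrl 1, the library with more epithelial marker RNA, 9 members fell and the median of all 10 was −0.55.

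**Figure D1:**
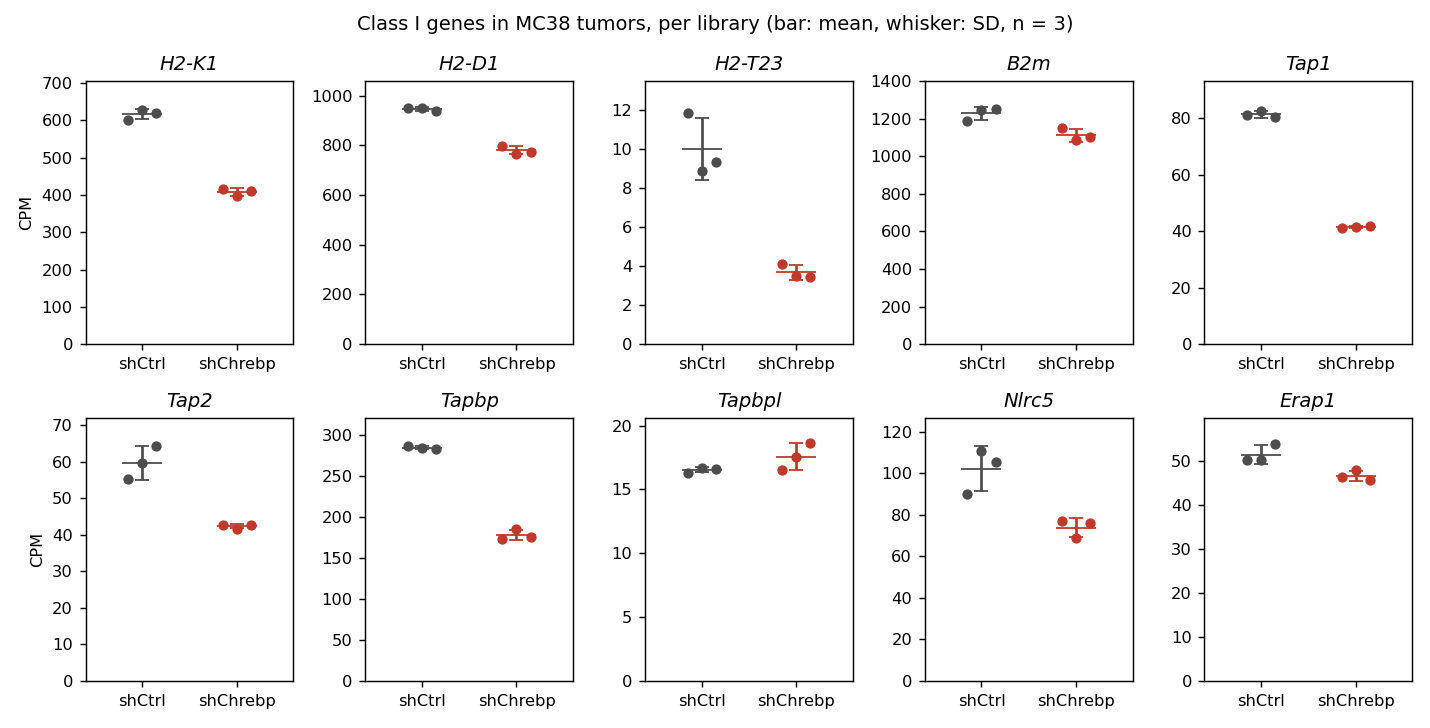
Level of each of the 10 genes in CPM (vertical axes from 0) in the 3 shCtrl and 3 shChrebp tumor libraries, one point per library, with a bar for the mean and a whisker for the SD. For every gene but Tapbpl the 3 shChrebp points lie below the 3 shCtrl points.

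Among the heavy chains, H2-K1 was at 601.8, 627.7 and 619.3 CPM in shCtrl 1, 2 and 3 and at 416.8, 397.2 and 410.3 in shChrebp 1, 2 and 3. Every shChrebp library lay well below every shCtrl library, with a log2 fold change of −0.60 ± 0.03 (SE, n = 3 and 3; edgeR adjusted p = 2.25e-16). H2-D1 was at 951.3, 948.2 and 938.3 CPM in shCtrl and at 797.1, 766.1 and 774.3 in shChrebp, again without overlap (log2 fold change −0.29 ± 0.03, edgeR adjusted p = 1.63e-09). The non-classical H2-T23, whose product Qa-1 shows leader peptides of other class I chains to NK cell receptors, was low, at 11.81, 8.834 and 9.33 CPM in shCtrl and 4.117, 3.469 and 3.421 in shChrebp. It had the largest drop of the 10, with a difference of −1.45 ± 0.15 on the log2 scale (edgeR adjusted p = 2.57e-09). Of the 50-base words of the longest coding transcript in GENCODE vM21, 8.79% in H2-K1, 14.3% in H2-D1 and 28.8% in H2-T23 also occurred in other genes, so the split of reads among class I chains is uncertain.

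The light chain B2m was at 1190, 1245 and 1253 CPM in shCtrl and at 1150, 1084 and 1100 in shChrebp. The groups did not overlap but came close, and the log2 fold change was −0.15 ± 0.03 (edgeR adjusted p = 1.36e-04). B2m, whose transcript shares none of its 50-base words with other genes, thus differed by less than the heavy chains. Within each library the FPKM ratio of B2m to the 3 heavy chains summed was 1.60, 1.65 and 1.68 in shCtrl and 2.02, 1.98 and 1.98 in shChrebp, higher in all 3 shChrebp libraries. The two-sided exact permutation p was 0.1, the smallest that 3 against 3 allow, and 0.114 adjusted over 8 ratios, so the ratio could not pass the threshold in this design.

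Of the transporter subunits, Tap1 was at 81.04, 82.6 and 80.39 CPM in shCtrl and at 41.18, 41.56 and 41.78 in shChrebp. The libraries of each group lay within a narrow band, and the log2 fold change was −0.98 ± 0.05 (edgeR adjusted p = 1.46e-16). Tap2 was at 55.16, 59.52 and 64.35 CPM in shCtrl and 42.7, 41.64 and 42.72 in shChrebp, a difference of −0.51 ± 0.06 on the log2 scale (edgeR adjusted p = 1.78e-08). The Tap1 to Tap2 FPKM ratio was 1.74, 1.56 and 1.46 in shCtrl and 1.08, 1.17 and 1.16 in shChrebp, without overlap (exact permutation p = 0.1, adjusted 0.114). Exons of Psmb9, an immunoproteasome subunit gene, overlap 3.87% of those of Tap1 on the opposite strand in GENCODE vM21, and since the use of strand in counting is not given in the sources used here, reads there cannot be told apart.

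Tapasin and its relative parted. Tapbp was at 286.0, 284.2 and 282.3 CPM in shCtrl and at 173.6, 185.3 and 175.5 in shChrebp, a difference of −0.68 ± 0.03 on the log2 scale (edgeR adjusted p = 4.41e-16). Tapbpl was at 16.3, 16.7 and 16.63 CPM in shCtrl and at 16.52, 17.57 and 18.61 in shChrebp, where the groups overlapped. Its log2 fold change of 0.08 ± 0.08 did not pass (edgeR adjusted p = 0.472), and the 95% interval ran from −0.08 to 0.24, which does not reach the drop of Tapbp. The Tapbp to Tapbpl FPKM ratio was 15.8, 15.5 and 15.6 in shCtrl and 9.22, 9.48 and 8.30 in shChrebp, lower in all 3 (exact permutation p = 0.1, adjusted 0.114). Exons of Gm19412 overlap 24.9% of those of Tapbp on the opposite strand, and those of Gm15821 14.1% of those of Tap2, also opposite, so reads there cannot be told apart either. Zbtb22, whose exons overlap 4.11% of those of Tapbp on the same strand, was at 27.7 ± 1.58 and 27.4 ± 1.99 CPM.

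The transactivator Nlrc5 was at 90.0, 110.9 and 105.5 CPM in shCtrl and at 76.9, 68.69 and 76.07 in shChrebp. The 3 shChrebp libraries were all lower, with shCtrl 1 nearest to them, and the log2 fold change was −0.48 ± 0.07 (edgeR adjusted p = 6.19e-04). The peptide trimmer Erap1 was at 50.17, 50.31 and 54.02 CPM in shCtrl and at 46.33, 47.91 and 45.63 in shChrebp. Its log2 fold change of −0.15 ± 0.05 passed (edgeR adjusted p = 0.0286) but held in only 6 of 13 alternative analyses, whose adjusted p ran from 0.0289 to 0.786, and it was lost without shCtrl 3 (0.173), shChrebp 1 (0.0944) or shChrebp 3 (0.0983). Exons of Cast overlap 11.5% of those of Erap1 on the opposite strand, and Cast, an inhibitor of calpain proteases, was at 364 ± 7.27 CPM in shCtrl and 352 ± 2.80 in shChrebp. The other 8 members that fell were called in 13 of 13 alternatives, shCtrl 1 left out included.

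The tested fibroblast markers were lower beside the class I genes in these tumors. The 5 markers summed to 118 to 122 CPM in shCtrl and 72.8 to 75.6 in shChrebp, and the 3 tested (Dcn, Col1a1 and Pdgfra) all fell. Lum (0.166 CPM in shCtrl and 0.0208 in shChrebp) and Fap (0.0548 and 0.11) were too low to be tested. The 4 endothelial markers summed to only 1.04 to 2.15 CPM in shCtrl and 0.62 to 1.29 in shChrebp. The 6 macrophage markers summed to 48.7 to 52.4 and 36.7 to 40.7 CPM, but of the 3 tested only Cd68 fell (24.5 to 11.4 CPM). Cd14 (22.6 to 24.3) and Lyz2 (2.86 to 2.68) did not pass, and Adgre1, Csf1r and Mrc1 were under 1 CPM. In bulk tumor RNA, fewer cells of a type and less RNA per cell cannot be told apart. Which cells these marker RNAs came from, and the part of those cells in the class I differences, was not tested.

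The wider pathway was read from gene lists. Of all genes tested in the tumors 19.7% fell and 18.6% rose, and list counts near these shares are not read as a result. Other class I heavy chains fell in 4 of 5 tested, 0 rose, and the median log2 fold change was −0.78. H2-T22 went from 119 to 67.8 CPM (−0.82 ± 0.04, SE; edgeR adjusted p = 3.91e-16), and H2-Q4 from 59.8 to 35.2 (−0.78 ± 0.06). H2-T10 (−1.09 ± 0.24) and H2-M3, which presents formylated peptides (−0.38 ± 0.10), also fell, the latter not by DESeq2. H2-T10 and H2-T22 share 42.9% and 44.7% of their 50-base words with other genes, mostly with each other, so these are not independent. Class I-like chains that pair with B2m fell in 3 of 3 tested: the iron regulator Hfe by 0.69, the neonatal Fc receptor Fcgrt by 0.41 and Mr1, which presents vitamin B metabolites, by 0.37 on the log2 scale.

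Peptide supply genes were split, where 19.7% of all genes tested fell and 18.6% rose. The immunoproteasome subunits Psmb9 (−1.61 ± 0.16), Psmb10 (−0.72 ± 0.09) and Psmb8 (−0.71 ± 0.07) and the proteasome activator Psme1 (−0.55 ± 0.05) fell, and over the list 5 of 10 fell and 3 rose, with a median of −0.27. On FPKM 1 of the list rose, and 2 rose without shCtrl 3 or shChrebp 3, while 5 fell in each of these alternatives. Folding and loading partners of the endoplasmic reticulum fell in 3 of 8 and rose in 1, with a median of −0.02. The one that rose, Sec61b (0.13 ± 0.05), lost its call with each library but shCtrl 1 left out. The translocon subunit Sec61a1 fell by 0.26 and the chaperone Hspa5 by 0.21 on the log2 scale, while calreticulin (Calr, 0.03 ± 0.03) and its partner Pdia3 (0.03 ± 0.03), both of the peptide loading complex, did not pass.

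Of 17 regulators of class I transcription tested, 6 fell and 4 rose, with a median of −0.02. Over all genes tested 19.7% fell and 18.6% rose. Stat2, a factor of the type I interferon signal, went from 148 to 78.8 CPM (−0.92 ± 0.05; edgeR adjusted p = 4.42e-16) and Irf1 from 67.6 to 45.9 (−0.57 ± 0.05). Suz12, a subunit of the Polycomb repressive complex, rose from 261 to 315 CPM (0.26 ± 0.03). The subunits of RFX, the X box complex that Nlrc5 works through, did not pass, with Rfx5 at −0.04 ± 0.09, Rfxank at −0.02 ± 0.09 and Rfxap at 0.16 ± 0.09. Interferon receptors and kinases fell in 1 of 8 and rose in 0 (median −0.02), the one being Ifngr1 at −0.18 ± 0.06, a call that ended with DESeq2 (adjusted p = 0.121) and without shCtrl 2 (0.0973), shCtrl 3 (0.054) or shChrebp 1 (0.0902). Without shCtrl 1, 1 gene of the list rose. Genes of endocytic and ubiquitin control rose in 2 of 5 and fell in 0 (median 0.08), Marchf8 by 0.18 and Wwp2 by 0.10, but 0 of 5 rose on FPKM, where Marchf8 turned to −0.038, and 0 without shCtrl 2. Without shCtrl 1, shChrebp 1 or shChrebp 2, 1 rose.

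In the macrophages, the class I genes did not move one way with choline. By limma-trend on log2(FPKM + 0.1), adjusted over 10028 genes, 4 of the 10 members rose, 1 fell and 5 did not pass, where 28.2% of all genes tested rose, 29.2% fell and 57.4% were called in either direction. The median log2 fold change of the members was 0.07, against 0.003 over all genes. On FPKM, 4 members did not overlap between groups with choline higher and 2 with choline lower, where 31.3% and 32.8% of all genes tested were so placed. All 10 members passed the filter of 1 FPKM in at least 3 libraries. Fold changes are on the log2(FPKM + 0.1) scale, which understates the change of low genes.

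**Figure D2:**
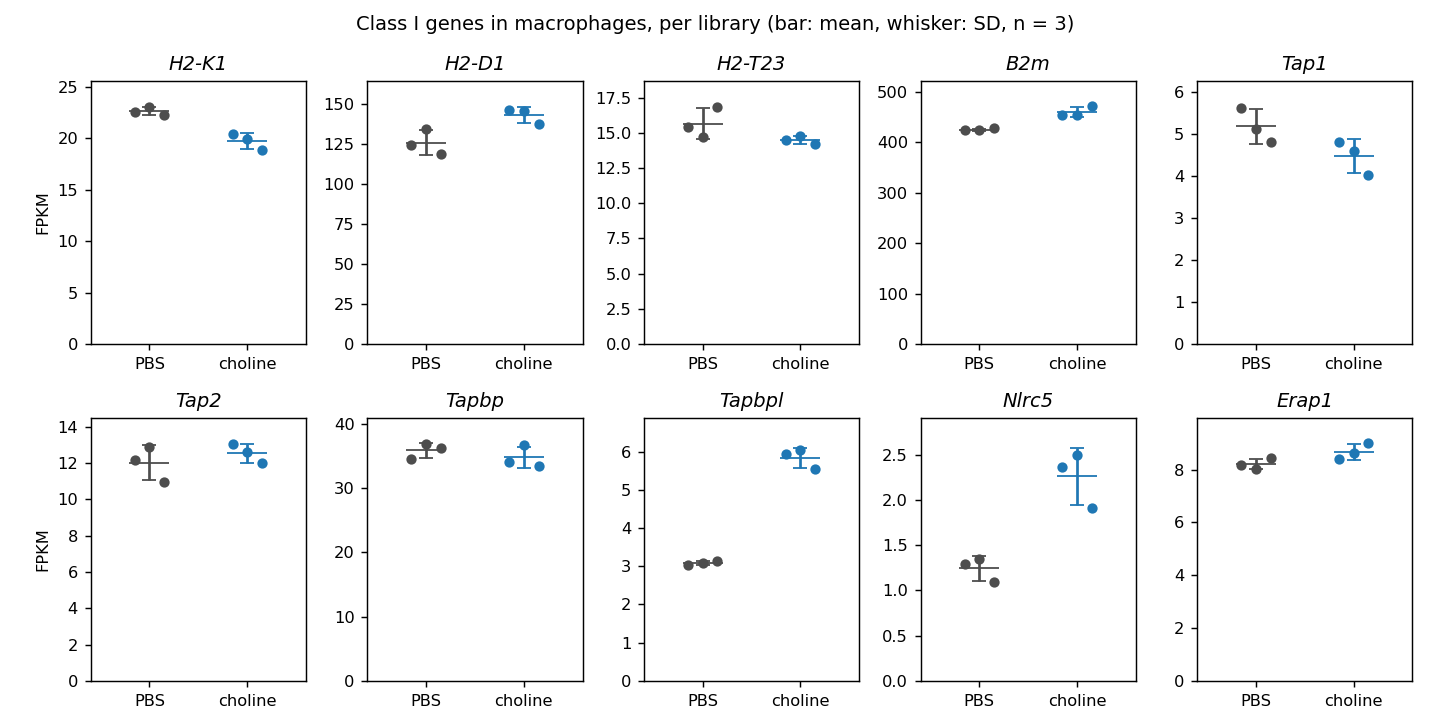
Level of each of the 10 genes in FPKM (vertical axes from 0) in the 3 PBS and 3 choline macrophage libraries, one point per library, with a bar for the mean and a whisker for the SD. Tapbpl and Nlrc5 part the groups most, with the choline points higher.

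Tapbpl had the largest difference, at 3.041, 3.074 and 3.134 FPKM in PBS libraries 1, a and b (a and b share a heading in the file and so carry no number) and at 5.929, 6.053 and 5.541 in choline 1, 2 and 3. Every choline library was far above every PBS library, a 1.87-fold difference on this scale (log2 0.90 ± 0.06, SE, n = 3 and 3; limma adjusted p = 2.92e-06). Nlrc5 was at 1.289, 1.351 and 1.091 FPKM with PBS and at 2.369, 2.504 and 1.91 with choline, a 1.75-fold difference (log2 0.81 ± 0.13; limma adjusted p = 4.14e-04). Both were the lowest members by level with PBS, and both were called in 11 of 11 alternatives.

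The other calls were small. H2-D1 was at 124.8, 134.4 and 118.7 FPKM with PBS and at 146.5, 145.8 and 137.7 with choline, so that the groups did not overlap (log2 0.19 ± 0.05; limma adjusted p = 0.00881). B2m was at 423.1, 423.2 and 427.0 FPKM with PBS and at 453.0, 454.1 and 471.1 with choline (log2 0.11 ± 0.03; limma adjusted p = 0.0109). H2-K1 went the other way, at 22.57, 23.05 and 22.29 FPKM with PBS and 20.39, 19.97 and 18.88 with choline (log2 −0.20 ± 0.05; limma adjusted p = 0.00438). These 3 calls held in 11 of 11 alternatives. The H2-K1 to H2-D1 ratio was 0.181, 0.172 and 0.188 with PBS and 0.139, 0.137 and 0.137 with choline, without overlap, at the smallest p the design allows (exact permutation p = 0.1, adjusted 0.114). The ratio of B2m to the summed heavy chains was 2.59 ± 0.124 with PBS and 2.59 ± 0.146 with choline, and the groups overlapped (exact permutation p = 1).

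The transporter and tapasin genes did not pass. Tap1 was at 5.607, 5.116 and 4.801 FPKM with PBS and at 4.798, 4.595 and 4.023 with choline, a log2 fold change of −0.21 ± 0.08 (limma adjusted p = 0.0602). The lowest PBS and highest choline values nearly touched, and Tap1 was called in 3 of 11 alternatives: on recovered reads with edgeR (adjusted p = 0.0428), without PBS b (0.0351) and without choline 1 (0.0397). Tap2 was at 12.19, 12.91 and 10.99 FPKM with PBS and 13.05, 12.64 and 12.01 with choline, where the groups overlapped (0.06 ± 0.07; 95% interval −0.06 to 0.19). Tapbp was at 34.58, 36.83 and 36.19 FPKM with PBS and 34.12, 36.69 and 33.49 with choline, with overlap (−0.05 ± 0.05; 95% interval −0.14 to 0.05). The Tapbp to Tapbpl FPKM ratio was 11.4, 12.0 and 11.5 with PBS and 5.76, 6.06 and 6.04 with choline, and the Tap1 to Tap2 ratio 0.460, 0.396 and 0.437 with PBS and 0.368, 0.363 and 0.335 with choline, both without overlap (exact permutation p = 0.1, adjusted 0.114, for each).

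H2-T23 and Erap1 also did not pass. H2-T23 was at 15.4, 14.67 and 16.84 FPKM with PBS and at 14.52, 14.75 and 14.21 with choline, with overlap (log2 −0.11 ± 0.06; limma adjusted p = 0.132). Erap1 was at 8.173, 8.027 and 8.425 FPKM with PBS and at 8.395, 8.615 and 9.005 with choline (log2 0.08 ± 0.05; limma adjusted p = 0.235). The gene opposite Erap1, Cast, was higher with choline, at 17.8 ± 0.500 and 21.3 ± 0.226 FPKM.

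**Figure D3:**
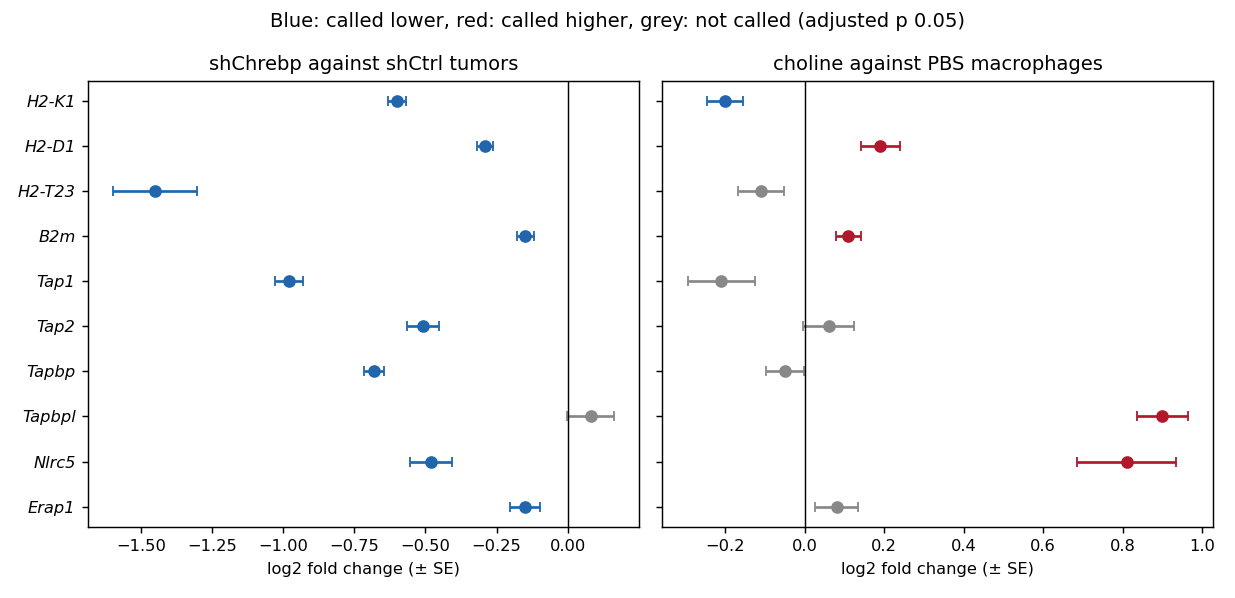
Log2 fold change of the 10 genes with its SE (horizontal axes, which differ in range) for shChrebp against shCtrl tumors and for choline against PBS macrophages, colored by call. The tumor values lie below 0 except for Tapbpl, and the macrophage values lie on both sides, from −0.21 for Tap1 to 0.90 for Tapbpl.

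The 2 comparisons came from separate tables and shared no libraries. H2-K1 was the member called lower in both. H2-D1, B2m and Nlrc5 were called lower in shChrebp tumors and higher in choline macrophages, at −0.29 and 0.19, −0.15 and 0.11, and −0.48 and 0.81 on the log2 scale. The difference between the comparisons was not tested.

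**Figure D4:**
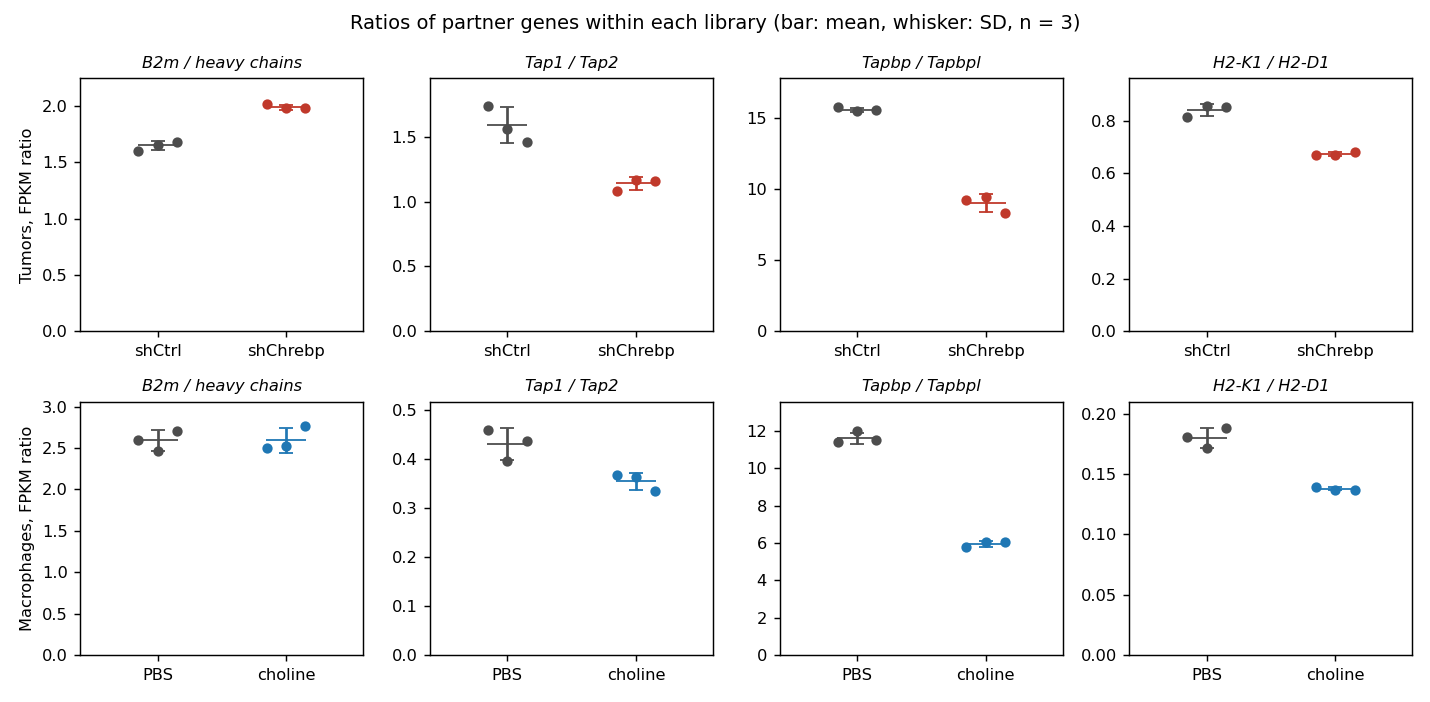
FPKM ratios of partner genes (vertical axes from 0) within each tumor library and each macrophage library, one point per library, with a bar for the mean and a whisker for the SD. The groups part in every panel except B2m over the heavy chains in macrophages, which is at 2.59 in both groups.

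The same lists were read in the macrophages, where 29.2% of all genes tested fell and 28.2% rose. List counts near these shares are not read as a result. Endoplasmic reticulum partners fell in 3 of 8 and rose in 0 (median −0.08): Calr went from 531 to 309 FPKM (−0.78 ± 0.03, SE; limma adjusted p = 1.43e-07), Pdia3 from 342 to 220 (−0.64 ± 0.04) and the translocon subunit Sec61b from 172 to 116 (−0.57 ± 0.04). Peptide supply genes fell in 4 of 10 and rose in 2 (median −0.05), with Psmb8 from 31.1 to 18.6 FPKM (−0.74 ± 0.08), Psme1 from 43.4 to 27.0 (−0.68 ± 0.06), Psmb9 from 2.69 to 1.90 (−0.49 ± 0.11) and the peptidase Nrdc from 66.2 to 75.2 (0.18 ± 0.03). Other heavy chains fell in 2 of 4 tested and rose in 1 (median −0.18), with H2-T24 at −1.10 ± 0.16, H2-T22 at −0.39 ± 0.12 and H2-M3 at 0.19 ± 0.05. Of 2 class I-like chains tested, Fcgrt rose from 2.44 to 3.74 FPKM (0.58 ± 0.17) and Mr1 did not pass. H2-T24 reached 1 FPKM with PBS only, so it passed the filter through the group where it was high and could enter the test only as lower. It was called in 8 of 8 alternatives that tested it, but could not be tested without any 1 of the PBS libraries. Without PBS 1, PBS a and PBS b in turn, 0, 0 and 1 of 3 other heavy chains tested fell, with medians of 0.01, 0.06 and −0.01. The call of H2-T22 ended without PBS 1, PBS a or choline 1, that of H2-M3 without choline 2, and that of Fcgrt with no filter on low values. Of the peptide supply genes, 4 rose without PBS b.

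Regulators rose in 8 of 18 and fell in 5 (median 0.02), where 28.2% of all genes tested rose and 29.2% fell. The 8 were not stable. Without PBS 1, PBS a or choline 2, 4 rose, and without PBS b, choline 1 or choline 3, 5 rose. With no filter on low values 3 rose, and in each of these alternatives 5 fell. The interferon regulatory factor Irf8 went from 7.04 to 4.36 FPKM (−0.69 ± 0.09; limma adjusted p = 1.46e-04), the Y box subunit Nfyc from 6.21 to 4.25 (−0.54 ± 0.07), the Polycomb methyltransferase Ezh2 from 23.8 to 18.9 (−0.33 ± 0.04) and the CREB family factor Atf1 from 45.6 to 59.0 (0.37 ± 0.04). Interferon receptors and kinases rose in 2 of 7 and fell in 1 (median 0.11). Jak2, a kinase of the interferon-γ receptor, went from 8.77 to 19.3 FPKM (1.13 ± 0.05; limma adjusted p = 1.42e-07), Ifnar2 from 10.5 to 13.8 (0.39 ± 0.05) and Ifngr2 from 37.1 to 34.1 (−0.12 ± 0.04). Endocytic and ubiquitin control genes rose in 1 of 5, Marchf8 (0.30 ± 0.05), and fell in 1, Wwp2 (−0.16 ± 0.05), with a median of −0.01. The calls of Ifngr2 and Wwp2 each ended without PBS 1, PBS a, choline 2 or choline 3, which left 0 lower in their lists.

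**Figure D5:**
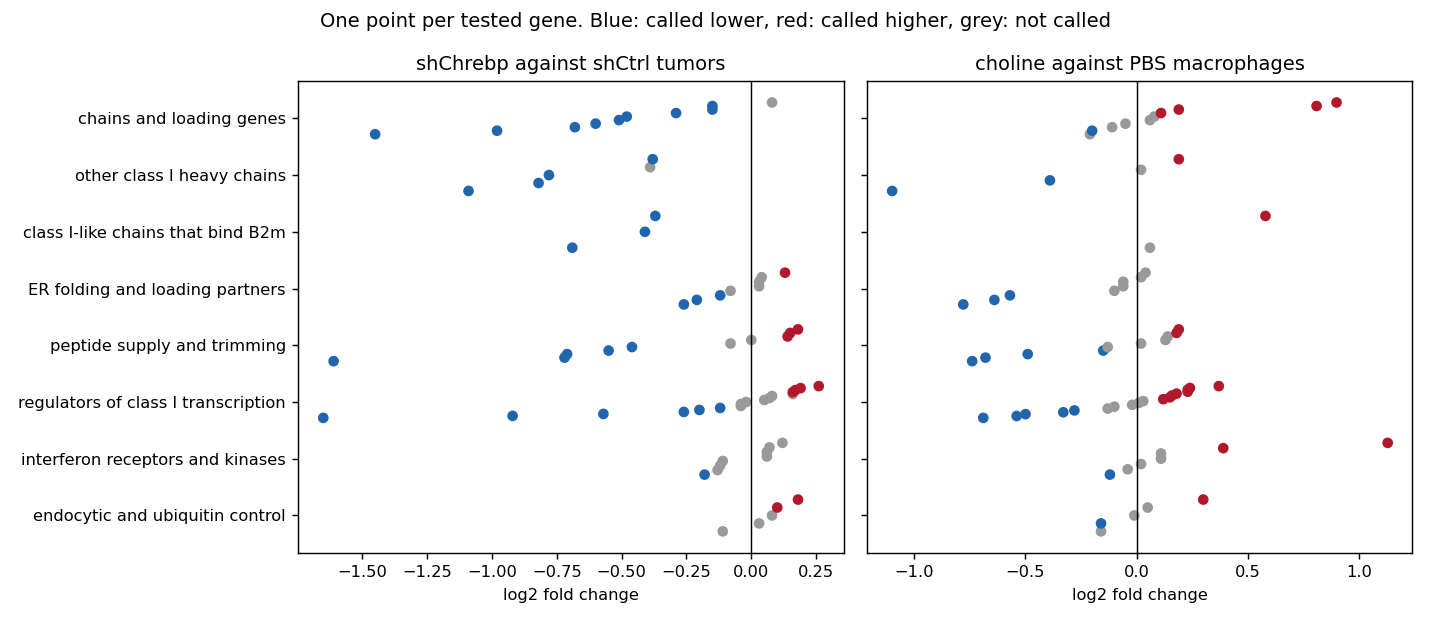
Log2 fold change (horizontal axes, which differ in range) of each tested gene of the members and 7 pathway lists, one point per gene, for the tumor and the macrophage comparison. Other heavy chains and class I-like chains lie below 0 in the tumors, while the macrophage lists spread to both sides.

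Across the 6 tumor libraries, the genes whose profile was most like that of Nlrc5, by Pearson's r over log2 FPKM, were Zcchc24 (0.993), Vps25 (0.993) and Lrrc8a (0.988). Among the members B2m was nearest (0.955), at rank 50 of 10775 genes. Erap1 (−0.325) and Tapbpl (−0.591) had a negative r, and the remaining members lay at 0.766 (Tapbp) or above. In the tumors the FPKM of Nlrc5 and of Erap1 also depends on a length that varied between libraries (4530 to 5576 and 3082 to 4797 bases). The negative r of Erap1 therefore does not describe its counts. In CPM both genes were lower in every shChrebp library than in every shCtrl library. Across the 6 macrophage libraries the genes most like Nlrc5 were Smg9 (0.999), Ppcdc (0.997) and Mettl3 (0.996). Tapbpl (0.957, rank 650 of 10027) and H2-D1 (0.949, rank 842) were the nearest members. H2-K1 (−0.787), H2-T23 (−0.722), Tap1 (−0.499) and Tapbp (−0.247) had a negative r, while B2m, Tap2 and Erap1 had a positive one. These are descriptions over 6 libraries that form 2 groups, and the group difference is part of each r.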

How the data were processed

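For the tumors the authors deposited expected counts and FPKM by Ensembl identifier, according to the file headers. For the macrophages the authors deposited FPKM. Reads were processed against GRCm39 according to the submitters' processing notes. Which aligner and counter were used, and whether strand was, is not given in the sources used here. Per the labels' protocols, TRIzol and a VAHTS Universal V6 library kit were used.

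Tumor rows were named by identifier through GENCODE vM21 (22219 of 22274 named), not by the deposited symbols. Of the expected counts 92% were whole; they were rounded and tested with edgeR 4.0.16 (R 4.3.3; quasi-likelihood, TMM, filterByExpr). The level per library is CPM, a gene's count over the library total. FPKM was used to compare genes with each other; for Erap1 and Nlrc5 it depends on a length that varied between libraries (3082 to 4797 and 4530 to 5576 bases), so groups were compared on counts. Macrophage FPKM were tested with limma-trend (limma 3.58.1) on log2(FPKM + 0.1) after leaving out genes that reached 1 FPKM in fewer than 3 libraries. With a length sought for each row, they were whole multiples of 1 read in 19496 of 19496 rows (100%, tolerance 0.02 reads). Rows of zeros count among these and rows with few reads fit readily, so this share does not show that the true reads were recovered. An alternative, edgeR on these recovered reads, called 52.4% of 12260 genes. P-values were Benjamini-Hochberg adjusted, threshold 0.05. Ratios were compared by exact permutation tests (scipy 1.17.1). The scripts were tested on simulated data. A simulated 1.2-fold change was recovered for 38 of 67 genes in the tumor and 31 of 67 in the macrophage setting. At 1.5-fold it was 66 and 62 of 67, so a gene that did not pass may still hold a small change. In the simulation 11623 of 11823 tumor and 9792 of 9976 macrophage genes tested were unchanged. That is a larger share than went uncalled in the data, so these recovery rates are not those of the real tests.

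A pair of PBS columns in the macrophage file share a heading and are used as PBS a and b, and 2 rows without name or values were left out. The members and lists were chosen with earlier results of these data known. Named are all members and, per list, up to 4 called genes with the smallest adjusted p, of which 1 is not reported here; other genes named for context (Calr, Pdia3, Mr1, the RFX subunits and overlapping genes) were chosen after their values were seen. Alternatives were other scalings, DESeq2 1.42.0, no filter, other pseudocounts, FPKM in place of counts, a replicate block and leaving out each library.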

Additional observations from a re-analysis of the deposited data

How the results depend on the processing

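Of 743 comparisons of a named gene with an alternative analysis, 697 kept direction and side of the threshold, 41 lost a call, 3 gained one and 2 turned direction. The 2 turns were Marchf8 in tumors, at −0.038 and −0.037 on log2(FPKM + 0.1) and log2(FPKM + 1). The 41 lost calls include that of Erap1 in tumors, with an adjusted p of 0.167 by DESeq2, 0.0676 without a filter on low counts and 0.782 and 0.786 on FPKM with the smaller and the larger pseudocount. The median log2 fold change of the 10 members in tumors, −0.49, was −0.474 without a filter on low counts, −0.418 on log2(FPKM + 0.1) and −0.395 on log2(FPKM + 1), and −0.553 to −0.449 when leaving out each library in turn. The number of members that fell in macrophages, 1, was 2 with edgeR on recovered reads and 1 to 2 when leaving out each library, the addition being Tap1. Scaling by RLE or the upper quartile moved the median of all genes by less than 0.1. The cause of these changes was not tested.

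No shared effect of the tumor replicate numbers was seen: the deviations of same-numbered libraries correlated at 0.0577, −0.0643 and −0.0251. This does not show whether same-numbered tumors were paired when collected. A fit with the number as a replicate block called 4640 genes against 4505, and the median of the members was −0.489 with 9 lower. No paired analysis was possible because 2 PBS columns share a heading, for the macrophages. H2-T23 in tumors and Nlrc5 in macrophages were the lowest members by level, and their log2 fold changes had the widest errors of the 10, ± 0.15 and ± 0.13.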
